A study of Mus musculus with 6 samples.

Results

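Adipokines are hormones and other proteins that fat tissue secretes, and 10 adipokine genes were followed here: Lep, Adipoq, Retn, Cfd, Rbp4, Nampt, Rarres2, Apln, Sfrp5 and Nrg4. They were taken by gene name from the 57180 genes of the deposited table, where each name had 1 row, and all 10 were among the 15446 tested genes, those that averaged 1 TPM or more over the 6 libraries. TPM expresses the share of a gene among all transcripts of a library after correction for transcript length, so levels can be compared between genes. RNA came from inguinal white adipose tissue, the subcutaneous fat of the groin, of wild-type male mice. One group of 3 samples ate a high-fat diet with 0.5% hesperidin (HEP), a flavonoid glycoside of citrus peel, and the other group of 3 ate the high-fat diet alone (HFD), both for 12 weeks and under 1 batch label. All 6 libraries are therefore from mice on the high-fat diet, and the control diet that the series mentions was not analysed here. The labels give no age, and they do not say whether each sample came from its own mouse, so p-values measure the spread between these samples only. Read depth is unknown, because TPM does not keep it.

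As background, leptin tells the brain how much fat is stored and restrains feeding, while adiponectin raises insulin sensitivity in liver and muscle through its receptors AdipoR1 and AdipoR2. Both come almost entirely from fat cells, and in obesity leptin typically rises as adiponectin falls. In mice resistin and complement factor D (adipsin) are also products of the fat cell itself, whereas Nampt and Apln are expressed in many cell types. Adipokine promoters are read by PPAR gamma and by C/EBP factors, which also drive the fat cell programme.

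The content of other cells differed between libraries and bears on every value below. Summed over 20 of 20 B and plasma cell genes, TPM ranged from 216 to 3196 in HEP and from 256 to 1780 in HFD, and over 23 of 23 T and NK cell genes from 29.8 to 1796 in HEP and from 17.8 to 1211 in HFD. HEP replicates 1 and 3 and HFD replicate 3 were rich in these genes, and the other 3 libraries were low. The 24 adipocyte identity genes, which include no adipokine, summed to 33581 to 53386 TPM in HEP and to 45306 to 56933 TPM in HFD, led by Fabp4 and Lpl, and all 24 were detected, as fat tissue should show. Liver genes were counted without Trf, because fat expresses it too. Over 17 genes they summed to 323 to 4555 TPM in HEP and to 336 to 2973 TPM in HFD. The sums were highest in HEP replicate 2 and HFD replicate 1. Cyp2e1 alone made up 378 of 394 TPM in HEP replicate 1 and 189 of 323 TPM in HEP replicate 3. It made up 250 of 336 TPM in HFD replicate 2 and 324 of 478 TPM in HFD replicate 3. Skeletal muscle genes summed to 102 to 20157 TPM in HEP and to 167 to 1031 TPM in HFD, with the highest value in HEP replicate 2. Mesothelial and mammary epithelial genes stayed at or under 8.93 TPM in HEP and 20.9 TPM in HFD as sums. Of the 12 mammary genes 1 was listed at 0 in all libraries, and every gene of the other lists named here had a value above 0 in some library. Macrophage genes summed to 1119.9 to 1864 TPM in HEP and 867 to 1941 TPM in HFD. In such bulk samples fewer fat cells and less RNA per fat cell cannot be told apart.

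Of the 10 adipokines, 8 had a lower mean in HEP than in HFD, and none passed the test. Their median log2 fold change was -0.34, against 0.07 over all genes tested, of which 41.4% had a lower HEP mean. With limma on log2(TPM + 1), 0 of 10 members passed an adjusted p of 0.05 in either direction, as did 0 genes (0%) of all genes tested. At an unadjusted p under 0.05 there was 1 lower member and 0 higher members, against 1.13% of all genes lower, 0.68% higher and 1.81% in either direction. That count of members was 5 without HEP replicate 2, where 3683 of the 15446 genes tested passed the same limit. Both HEP libraries left there were rich in lymphocyte genes. The count of members was 0 without HEP replicate 3, HFD replicate 2 or HFD replicate 3, where 250, 121 and 381 of all genes passed. With all libraries Apln was that member, and it was also the 1 member whose HEP values all lay below its HFD values, a pattern found in 3.58% of all genes tested. The reverse, every HEP value above, was found in 0 members and in 1.88% of all genes tested, and 5.46% of genes had no overlap in either direction. Leaving out 1 library moved the members' median to between -0.62 (without HEP replicate 2, with 9 of 10 lower) and -0.14 (without HEP replicate 3, with 6 of 10 lower). The lowest ratios of HEP to HFD means belonged to Lep at 0.642 times the HFD mean, Retn at 0.689 times and Apln at 0.732 times.

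**Figure D1:**
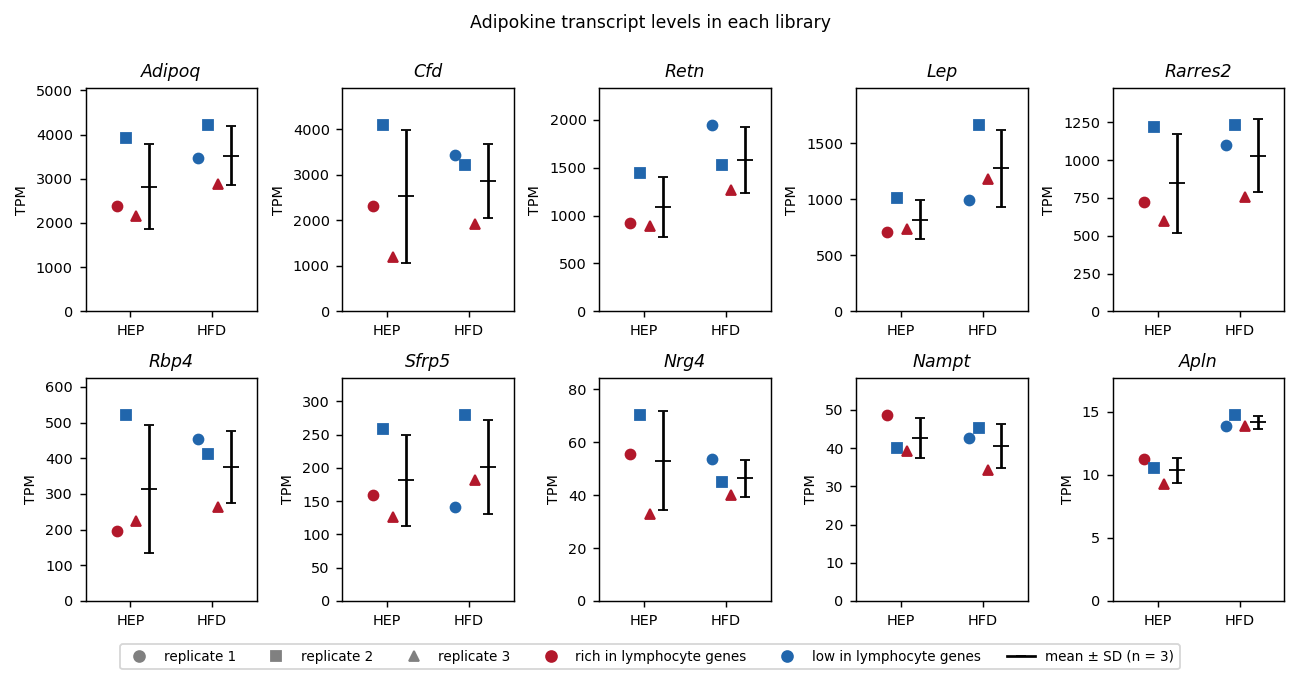
TPM of each adipokine in the 3 HEP and the 3 HFD libraries, with the mean and SD beside them; symbols give the replicate number and colours mark libraries rich or low in lymphocyte genes. Apln is the panel without overlap, at 9.28 to 11.24 TPM in HEP and 13.85 to 14.75 TPM in HFD, and in most other panels HEP replicate 2 lies far above the other HEP libraries.

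No member passed the test, and the promoters shown were picked by ratio, level and overlap. The 300 bases around the transcription start are given for Lep and Retn, the members with the lowest HEP to HFD ratios. They are also given for Adipoq, the most abundant, and for Apln, the member without overlap. They run from 250 bases before to 50 after the RefSeq start in build GRCm38.p6, at chr6:29059971-29060270 (+ strand) for Lep, chr16:23146286-23146585 (+ strand) for Adipoq, chr8:3655520-3655819 (+ strand) for Retn and chrX:48034804-48035103 (- strand) for Apln. Capitals mark matches on either strand to a PPAR and RXR element (2 copies of AGGTCA with any 1 base between them), a single AGGTCA, TTNNGNAA (a C/EBP type motif), CACGTG (an E box), GGGCGG (a GC box) or TATAAA. The single copy is also part of the full element.
Lep: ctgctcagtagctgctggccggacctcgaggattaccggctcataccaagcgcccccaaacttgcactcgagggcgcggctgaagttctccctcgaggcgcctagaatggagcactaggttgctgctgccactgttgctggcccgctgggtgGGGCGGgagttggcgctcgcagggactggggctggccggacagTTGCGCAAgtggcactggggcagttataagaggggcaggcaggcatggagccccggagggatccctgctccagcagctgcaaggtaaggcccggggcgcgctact
Adipoq: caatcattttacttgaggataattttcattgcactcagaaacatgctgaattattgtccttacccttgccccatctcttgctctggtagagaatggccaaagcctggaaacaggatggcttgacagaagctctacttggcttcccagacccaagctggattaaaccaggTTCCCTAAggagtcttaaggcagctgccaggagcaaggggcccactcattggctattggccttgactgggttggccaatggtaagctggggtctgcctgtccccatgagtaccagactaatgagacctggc
Retn: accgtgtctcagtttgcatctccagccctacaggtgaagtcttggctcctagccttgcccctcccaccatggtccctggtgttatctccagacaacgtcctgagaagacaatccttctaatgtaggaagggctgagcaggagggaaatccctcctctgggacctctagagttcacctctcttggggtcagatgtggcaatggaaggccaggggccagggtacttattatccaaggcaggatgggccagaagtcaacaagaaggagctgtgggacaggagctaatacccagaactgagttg
Apln: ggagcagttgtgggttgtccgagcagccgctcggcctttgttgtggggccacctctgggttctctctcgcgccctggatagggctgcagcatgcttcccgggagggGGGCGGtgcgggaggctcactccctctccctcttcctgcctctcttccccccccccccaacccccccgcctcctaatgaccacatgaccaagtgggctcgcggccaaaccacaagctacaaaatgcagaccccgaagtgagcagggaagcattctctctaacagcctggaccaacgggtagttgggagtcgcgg
The Lep window holds the palindrome TTGCGCAA, a C/EBP type match that starts 55 bases before the transcription start, and a GC box. The Adipoq window holds 1 C/EBP type match, TTCCCTAA, on the reverse strand. The Apln window holds a GC box, and the Retn window held none of the 6 motifs. C/EBP alpha is known to act on the mouse Lep promoter at such a palindrome. C/EBP type matches stood in windows of 4 of the 9 members with an entry, against 40.7% of 32544 mouse windows, and a single AGGTCA in 2 of 9, against 16.2%. A GC box was found for 5 of the 9 members against 35.9%, TATAAA for 1 against 13.6%, CACGTG for 0 against 7.17% and the full PPAR element for 0 against 0.0399%. Members were counted per gene over their 10 windows, while the mouse shares are per single window. A match is a run of letters and not a shown binding site.

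Among the classical fat cell hormones, Lep on chromosome 6 encodes leptin. It had 710, 1016 and 733 TPM in HEP replicates 1 to 3, against 991, 1662 and 1182 TPM in HFD replicates 1 to 3. The groups overlapped in 1 pair of libraries, since HEP replicate 2 lay just above HFD replicate 1. Lep averaged 819.9 ± 171 TPM in HEP and 1278 ± 346 TPM in HFD (SD, n = 3 each). The log2 fold change was -0.63 ± 0.26 (SE), with a 95% interval of -1.25 to 0.004. Limma gave Lep a p of 0.0511 before adjustment and 0.879 after it. Lep kept its lower HEP value within the rich libraries, at a log2 fold change of -0.71, where HFD replicate 3 stood alone for HFD. It did so too within the low libraries, at -0.34, where HEP replicate 2 stood alone for HEP.

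Adipoq on chromosome 16 encodes adiponectin and was the most abundant member by mean, ranking 33 among all genes. Its TPM was 2393, 3926 and 2151 in HEP and 3473, 4211 and 2891 in HFD. Adipoq of HEP replicate 2 lay among the HFD values, and that of the other HEP libraries lay below them all. The log2 fold change of Adipoq was -0.35 ± 0.31 (SE), with a 95% interval from -1.10 to 0.39 and a limma adjusted p of 0.879. Retn on chromosome 8 encodes resistin, which opposes insulin action in mice. Its values were 923, 1448 and 894 TPM in HEP against 1943, 1529.9 and 1269 TPM in HFD, a log2 fold change of -0.55 ± 0.27 (SE), for which limma gave a p of 0.0868 before and 0.879 after adjustment. Only HEP replicate 2 overlapped with HFD for Retn, lying above HFD replicate 3.

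The ratio of Lep to Adipoq sets both fat cell hormones against each other within a library, so that the library's total cancels. The ratio was 0.297, 0.259 and 0.341 in HEP replicates 1 to 3 and 0.285, 0.395 and 0.409 in HFD replicates 1 to 3. HFD replicate 1 lay among the HEP values, and the other HFD libraries lay above them. The mean ratio was 0.299 ± 0.041 in HEP and 0.363 ± 0.068 in HFD (SD, n = 3 each). The difference in log2 ratio was -0.27 (exact permutation test, two-sided, p = 0.3), and the smallest p this design allows is 0.1. Such a ratio shows unequal levels and not which of the 2 genes differed.

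Cfd and Rarres2 link fat to innate immunity. Cfd on chromosome 10 encodes adipsin, the serine protease that cleaves factor B and so starts the alternative complement pathway. It ranked 36 among all genes, with 2319, 4084 and 1184 TPM in HEP and 3429, 3208 and 1923 TPM in HFD. Both the highest and the lowest Cfd value were in HEP, and its coefficient of variation was 57.8% in HEP and 28.5% in HFD. For Cfd the log2 fold change was -0.30 ± 0.49 (SE; limma adjusted p = 0.887), with the widest interval of the members, from -1.497 to 0.89. Rarres2 on chromosome 6 encodes chemerin, a chemoattractant for dendritic cells and macrophages. It had 725, 1219 and 599.7 TPM in HEP and 1099, 1230.6 and 759 TPM in HFD, a log2 fold change of -0.32 ± 0.33 (SE; limma adjusted p = 0.879). For Rarres2 HEP replicate 2 was close to HFD replicate 2, and the other HEP values lay below HFD. Lrrc61, which overlaps Rarres2 on the other strand, averaged 13.2 TPM, and since strand use is not stated a small share of these reads could belong to either gene.

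Rbp4 on chromosome 19 encodes the carrier of retinol in blood, made mainly by the liver and also by fat cells. It had 196, 522 and 224 TPM in HEP and 455, 411 and 263 TPM in HFD. For Rbp4 the log2 fold change was -0.37 ± 0.42 (SE; limma adjusted p = 0.879). The 2 highest Rbp4 values were in HEP replicate 2 and HFD replicate 1, which also held the most Alb, the liver gene of serum albumin. Alb had 9.20, 1024 and 39.3 TPM in HEP and 664, 27.5 and 48.8 TPM in HFD. Ttr, whose liver product carries Rbp4 in blood, had 0.21, 192 and 6.31 TPM in HEP and 108, 3.25 and 7.82 TPM in HFD. In HFD replicate 2 Rbp4 was at 411 TPM and Ttr at 3.25 TPM. Without the 2 libraries highest in liver genes the log2 fold change of Rbp4 was -0.65. The other members except Nampt, at 0.15, also moved down, with a median over the 10 of -0.60. That left HEP replicates 1 and 3, both rich in lymphocyte genes, against HFD replicates 2 (low) and 3 (rich). Liver and lymphocyte content therefore changed together in this step, and it cannot tell them apart. With 1 library left out Rbp4 ranged from -0.80 (without HEP replicate 2) to -0.10 (without HEP replicate 1), and the part of liver transcripts in the Rbp4 levels was not tested.

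Nampt and Nrg4 were the members with a higher HEP mean. Nampt on chromosome 12 encodes the rate-limiting enzyme of NAD salvage, also found outside cells as visfatin. It varied least across libraries among the members, 1.425 times between its lowest and highest value. Nampt had 48.7, 40.1 and 39.3 TPM in HEP and 42.6, 45.3 and 34.2 TPM in HFD, a log2 fold change of 0.07 ± 0.17 (SE) with a 95% interval from -0.34 to 0.48. Nrg4 on chromosome 9 encodes neuregulin 4, an ErbB4 ligand that brown fat releases in mice and that acts on the liver. Its TPM was 55.6, 70.3 and 33.0 in HEP and 53.8, 44.9 and 40.2 in HFD, so both extremes were in HEP. For Nrg4 the log2 fold change was 0.14 ± 0.29 (SE), with a 95% interval from -0.57 to 0.84. The groups overlapped for Nampt too. Genes of brown and beige fat summed to 109, 409 and 108 TPM in HEP and to 294, 189.7 and 142 TPM in HFD, a sum led by Cox8b and Cox7a1. HEP replicate 2 had the highest level for 4 of these 12 genes, Cox8b, Cox7a1, Cpt1b and Slc27a2, and an HFD library for the other 8, Ucp1 and Cidea among them. HEP replicate 2 was also the library highest in skeletal muscle genes, at 20157 TPM, and in liver genes, at 4555 TPM. The part of muscle and liver in the brown and beige sum was not tested. Nor was the part of brown and beige fat cells in the Nrg4 values. Limma adjusted p-values were 0.923 for Nampt and 0.915 for Nrg4. Fbxo22 overlaps Nrg4 on the other strand at a mean of 33.9 TPM, close to the level of Nrg4 itself, so the values of Nrg4 are uncertain where reads were counted without strand. In the reference annotation Gdap10 overlaps Nampt on the same strand.

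Apln on the X chromosome encodes apelin, a peptide that lowers vascular tone and is induced by insulin in fat cells. It was the least abundant member, with 11.24, 10.55 and 9.28 TPM in HEP and 13.85, 14.75 and 13.86 TPM in HFD. The groups did not overlap for Apln, and its HFD values spread least of all members, with a coefficient of variation of 3.65%. The log2 fold change was -0.42 ± 0.16 (SE), with a 95% interval from -0.80 to -0.04, a limma p of 0.0353 that became 0.879 on adjustment. Apln had a log2 fold change of -0.41 within the rich libraries, where HFD replicate 3 stood alone for HFD. It had -0.41 within the low libraries, where HEP replicate 2 stood alone for HEP. Sfrp5 on chromosome 19 encodes a secreted decoy that binds WNT5A and limits its signal in fat. Sfrp5 had 159.7, 258 and 127 TPM in HEP and 142, 279.5 and 182 TPM in HFD, and the groups overlapped throughout, with the lowest value in HEP replicate 3 and the highest in HFD replicate 2. For Sfrp5 the log2 fold change was -0.15 ± 0.35 (SE; limma adjusted p = 0.920).

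By mean level over the 6 libraries the order was Adipoq, Cfd, Retn, Lep, Rarres2, Rbp4, Sfrp5, Nrg4, Nampt and Apln, from 3174 to 12.3 TPM. Neighbours in this order were compared within each library on the log2 scale by two-sided exact sign-flip permutation over 6 libraries, adjusted over 9 pairs. The order was taken from the same 6 libraries, so the pairs and their direction came from the values tested. Both diet groups were pooled for it. The order of 5 pairs held in 6 of 6 libraries, each with an exact p of 0.03125, the smallest that 6 libraries allow, and an adjusted p of 0.0563. These were Cfd over Retn, Rarres2 over Rbp4, Rbp4 over Sfrp5, Sfrp5 over Nrg4 and Nampt over Apln. Lep exceeded Rarres2 in 3 of 6 libraries and Nrg4 exceeded Nampt in 4 of 6, with exact adjusted p-values of 0.375 and 0.281. Adipoq exceeded Cfd in 5 of 6 libraries (exact adjusted p = 0.161), the exception being HEP replicate 2, and Retn exceeded Lep in 5 of 6 (exact adjusted p = 0.141), the exception being HFD replicate 2.

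The members did not vary as 1 block. In the 6 libraries together Adipoq, Retn, Cfd, Rbp4 and Rarres2 were lower in every library rich in lymphocyte genes than in every low library, a pattern of 13.7% of all genes tested. The sum of the 10 members was 0.754%, 1.26% and 0.599% of all TPM in HEP replicates 1 to 3 and 1.16%, 1.26% and 0.856% in HFD replicates 1 to 3. This share was lower in each rich library than in each low one, in both diet groups. HEP replicate 3 was the lowest library for 7 of the 10 members and HFD replicate 2 the highest for 5 of them. Lep, Apln, Sfrp5, Nrg4 and Nampt did not follow the lymphocyte split in all libraries. Lep was higher in HFD replicate 3, a rich library, than in HFD replicate 1, a low one.

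**Figure D2:**
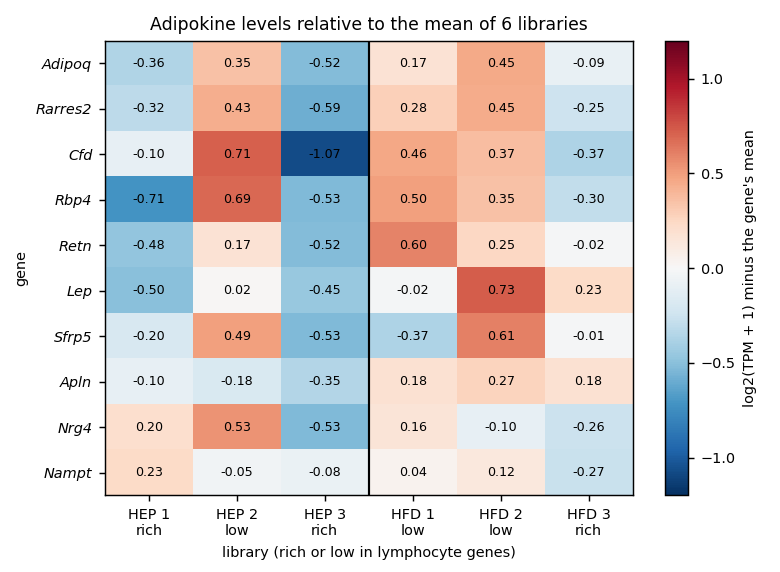
Log2(TPM + 1) of each adipokine minus its mean over the 6 libraries, HEP libraries left of the line and HFD libraries right of it, with each library marked rich or low in lymphocyte genes. Cfd ranges from -1.07 in HEP replicate 3 to 0.71 in HEP replicate 2, while Apln is negative in all HEP libraries and positive in all HFD libraries.

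Because the rich libraries were 2 of the 3 HEP libraries and 1 of the 3 HFD libraries, lymphocyte content moved in part with the diet. Its part in each difference was not tested beyond the values given here. Content was not level within the rich libraries either. Their mean log2(TPM + 1) over the lymphocyte genes was 6.18 and 6.23 in HEP replicates 1 and 3, against 5.49 in HFD replicate 3. The geometric mean of their adipocyte identity genes was 300 and 248 TPM in these HEP libraries, against 346 TPM in HFD replicate 3. Among the rich libraries both HEP values lay below the HFD value for 7 members, Lep, Adipoq, Retn, Rbp4, Rarres2, Apln and Sfrp5, a pattern of 24.2% of all genes tested. Nampt was above it in both, as were 45.7% of all genes tested. Among the low libraries HEP replicate 2 lay below both HFD values for Retn, Nampt and Apln, above both for Cfd, Rbp4 and Nrg4, and between them for the other 4. Over all genes tested 38.7% lay below both and 20.9% above both there. With the lymphoid content as a covariate the log2 fold changes were -0.50 for Lep, -0.32 for Retn and -0.40 for Apln, and the median over the members was 0.02, with 5 lower and 5 higher. Each fit within the rich or the low libraries has 1 library in an arm, whose spread is taken from the other libraries, and no member passed in any of these fits.

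Scaled to the adipocyte identity genes, the median of all genes moved by 0.35 on the log2 scale, from 0.07 to 0.42, and the members had a median of 0.07. Relative to all genes the members' median was then -0.36, against -0.41 with TPM as deposited. Such scaling divides all genes of a library by the same factor, so this relative value could hardly change. It therefore says nothing about fat cell content. Lep, Retn and Apln kept lower HEP values on that scale, at log2 fold changes of -0.22, -0.15 and -0.05, while Adipoq, Cfd, Rbp4, Rarres2 and Sfrp5 had values between 0.04 and 0.25. Nrg4 had 0.53 and Nampt 0.47 on that scale, with limma adjusted p-values of 0.485 for both. The adipocyte identity genes themselves had a lower HEP mean in 24 of 24, against 41.4% of all genes tested, and a median of -0.45. At an unadjusted limma p under 0.05 there were 6 lower, against 1.13% of all genes, and 0 after adjustment. Of the 24 genes 5 lay entirely below HFD, against 3.58% of all genes tested.

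Receptors of these adipokines did not pass the test, nor did any gene of the lists around them, all with limma and the same adjustment. Over all genes tested 1.13% were lower and 0.68% higher in HEP at an unadjusted p under 0.05. HEP means of list genes are compared on the log2 scale. Of 12 receptor genes tested 0 passed in either direction and 0 had an unadjusted p under 0.05, 4 had a higher and 8 a lower HEP mean, and the median log2 fold change was -0.04. Aplnr, the apelin receptor of endothelial cells, had 30.1, 38.7 and 33.1 TPM in HEP and 40.7, 51.4 and 40.1 TPM in HFD. Aplnr did not overlap between the groups, like Apln, and its log2 fold change was -0.36 ± 0.17 (SE) with a limma adjusted p of 0.879. The 14 endothelial genes, Aplnr among them, all had a lower HEP mean, with a median of -0.29. They summed to 1641 to 2102 TPM in HEP and 2014 to 2335 TPM in HFD. Of these 14 genes 6, Aplnr included, lay entirely below HFD, against 3.58% of all genes tested. The part of endothelial content in the Aplnr values was not tested.

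Lepr, the leptin receptor, had 11.7, 0.99 and 10.03 TPM in HEP and 0.56, 1.32 and 5.84 TPM in HFD, high in the 3 libraries rich in lymphocyte genes and near 1 TPM in the others. Adipor1 and Adipor2, the adiponectin receptors, had log2 fold changes of -0.05 and -0.01. Cdh13, the cadherin that holds adiponectin on cell surfaces, had -0.33, and Cmklr1, the chemerin receptor, had -0.27. Cap1, reported in human monocytes as a resistin receptor, had 0.34, with its lowest value of each diet group in HEP replicate 2 and in HFD replicate 1. Erbb3, a neuregulin receptor, was at 1.04 to 1.5 TPM in HEP and 0.91 to 1.26 TPM in HFD. Erbb4, the receptor of neuregulin 4, was at 0.16 to 0.25 TPM in HEP and 0.21 to 0.32 TPM in HFD, and Stra6, the receptor for Rbp4, was at or under 0.42 TPM in HEP and 0.29 TPM in HFD. Neither reached the level needed for testing.

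Among the genes that fold and export adiponectin and leptin, 0 of 20 tested genes passed (0 at an unadjusted p under 0.05), with 9 higher and 11 lower HEP means and a median of -0.01. Erp44, which retains adiponectin in the secretory pathway until it is assembled, had 38.2, 32.1 and 39.0 TPM in HEP and 30.9, 37.9 and 37.8 TPM in HFD. The smallest p-values belonged to the lysyl hydroxylases Plod3 (log2 fold change -0.39) and Plod1 (-0.36), which modify collagen-like domains, and to Gstk1 (-0.44), known as the adiponectin assembly factor DsbA-L. In the retinol list 0 of 17 passed (0 at an unadjusted p under 0.05), 13 had a lower HEP mean and the median was -0.21. Dgat1, which can esterify retinol as well as diglyceride, had -0.43, Aldh1a7 had -0.32 and the retinol dehydrogenase Adh1 had -0.31.

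In the NAD list 0 of 20 passed (1 lower at an unadjusted p under 0.05), with 11 higher and 9 lower HEP means and a median of 0.04. Nnmt, which methylates nicotinamide and so draws on the substrate of Nampt, had 163, 264 and 147 TPM in HEP and 276, 339 and 256 TPM in HFD. It had a log2 fold change of -0.64 ± 0.26 (SE; limma unadjusted p = 0.0455, adjusted p = 0.879), and only HEP replicate 2 overlapped with HFD. Qprt, which makes NAD from quinolinate, was low, at 2.37, 3.15 and 2.71 TPM in HEP and 2.14, 0.47 and 1.51 TPM in HFD. Its log2 fold change was 0.72 without overlap, and 1.88% of all genes tested had every HEP value above. The NAD consumer Parp1 had 0.73 and was higher in each lymphocyte-rich library than in each low one. Of the complement list 0 of 15 passed (1 higher at an unadjusted p under 0.05), with 9 higher HEP means and a median of 0.06. C3, the complement component downstream of adipsin, had 285, 175 and 270.1 TPM in HEP and 118, 143 and 164 TPM in HFD, without overlap. Its log2 fold change was 0.76 ± 0.24 (SE; limma unadjusted p = 0.0178, adjusted p = 0.879), and within each diet group its highest values were in the lymphocyte-rich libraries. Cfb, the substrate of adipsin, had -0.06, Cfp had 0.29 and Cd55 had 0.77.

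In the WNT list around Sfrp5, 0 of 19 tested genes passed (1 lower at an unadjusted p under 0.05), 15 had a lower HEP mean and the median was -0.20. Wnt5a, the ligand that Sfrp5 binds, had 6.26, 9.65 and 6.32 TPM in HEP and 9.92, 10.8 and 8.81 TPM in HFD, a log2 fold change of -0.38. Sfrp2, a relative of Sfrp5, had 3.38, 1.95 and 2.94 TPM in HEP and 3.64, 6.56 and 5.70 TPM in HFD. The WNT co-receptor Lrp5 had a log2 fold change of -0.36, and both genes were without overlap. Of the 19 genes 2 lay entirely below HFD and 1 entirely above, against 3.58% and 1.88% of all genes tested. Of 32 transcriptional regulators 0 passed (1 higher at an unadjusted p under 0.05), with 17 higher and 15 lower HEP means and a median of 0.01. Pparg had 113, 141 and 74.9 TPM in HEP and 153, 185 and 135 TPM in HFD, a log2 fold change of -0.55, and Cebpa had -0.51. Klf15, which promotes fat cell maturation, had -0.67, and Stat5b, a signal carrier of growth hormone, had 0.41, both without overlap.

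Other secreted proteins of fat had a lower HEP mean in most cases. Of 34 tested genes 0 passed (4 lower at an unadjusted p under 0.05), 26 had a lower HEP mean, and the median was -0.27. Of these 34 genes 6 lay entirely below HFD and 0 entirely above, against 3.58% and 1.88% of all genes tested. C1qtnf5, an adiponectin relative, had 8.79, 10.5 and 7.85 TPM in HEP and 11.5, 18.1 and 14.3 TPM in HFD, a log2 fold change of -0.62. C1qtnf5 did not overlap between the groups. Adm, which encodes the vasodilator adrenomedullin, had -0.53, and Fbn1, whose precursor yields the hormone asprosin, had -0.60, both without overlap. The limma adjusted p was 0.879 for these 3 genes.

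**Figure D3:**
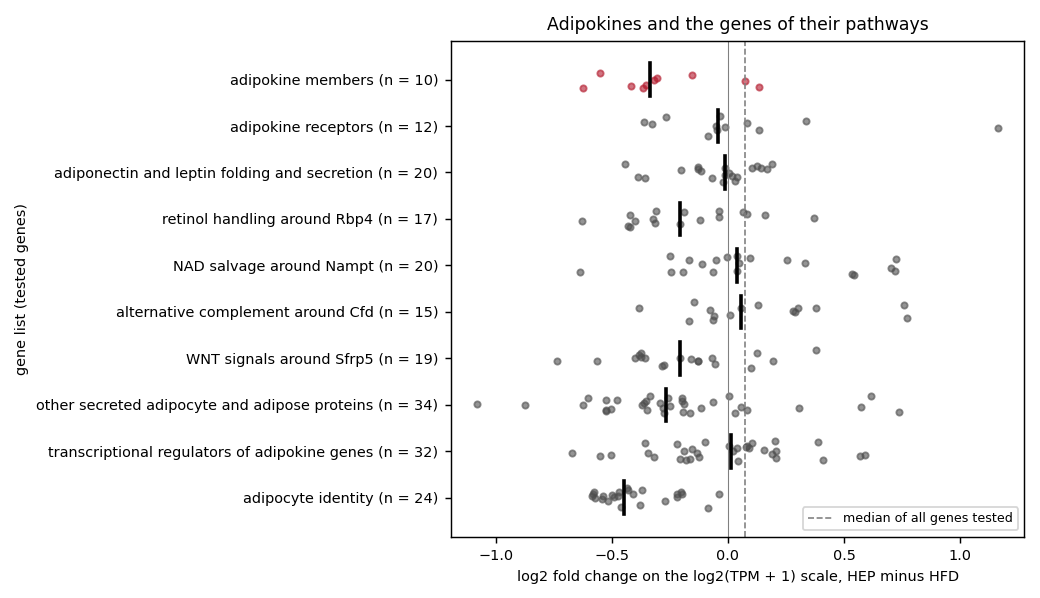
Log2 fold change of HEP minus HFD for every tested gene of the adipokine set (red) and of the lists around it, 1 point per gene, with the list median as a black bar and the median of all genes as a dashed line. The adipokine median is -0.34 and the adipocyte identity median -0.45, while receptors, folding genes, NAD genes, complement genes and regulators have medians between -0.04 and 0.06.

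Among 7983 genes at 10 TPM or more, those whose log2(TPM + 1) followed each member most closely over the 6 libraries were found by Pearson correlation, given as a description since the libraries share the lymphocyte split. Lep was matched by Tomm40l (r = 0.99) and Nudt4 (r = 0.99), and Tomm40l had 27.8, 30.9 and 28.7 TPM in HEP against 31.0, 37.5 and 32.8 TPM in HFD. Adipoq was followed by Tmco1 and Gpx7, Rarres2 by Entrep1 and Klhl22, and Cfd by Tmt1a and Stub1, each at an r above 0.99. Retn was followed by mt-Rnr2, the large ribosomal RNA of the mitochondrion, and Mrps15, a mitochondrial ribosomal protein. Rbp4 was followed by Iah1 and by G0s2, the inhibitor of the fat cell's triglyceride lipase. Apln was followed by Lrrc39 and Trappc9, Sfrp5 by Psmc2 and Tfg, Nampt by Fbh1 and Lztr1, and Nrg4 by Slc22a5 and Aldh3a2.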

How the data were processed

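The authors deposited TPM for each gene in each sample, beside a mean TPM for each diet group. Per the submitters' processing notes the tools were fastp, HISAT2, RSEM, StringTie and DESeq2, with no version or role for any. Genome build, annotation and strand setting: not given in the sources used here. Because TPM columns share 1 total, abundant transcripts in a library lower its other values, and the read depth behind a value is unknown. Samples were grouped by title. Genes averaging 1 TPM or more were tested, HEP against HFD, on log2(TPM + 1), a scale that understates changes of low genes. The test was limma 3.58.1 under R 4.3.3 (trend on intensity, two-sided), adjusted by Benjamini-Hochberg over all 15446 genes at a threshold of 0.05. It was tested on simulated data of this comparison (15446 genes). There the recovered share was 17.9% at 2-fold, 79.1% at 4-fold and 83.3% at 8-fold changes, and 5 unchanged genes were called. The simulated noise was independent between genes, and changes were placed only in genes of higher level. Differences in cell content that many genes share were not simulated, so these shares do not give the power in the real libraries. Lymphoid content was the mean log2(TPM + 1) of B, plasma, T and NK cell genes, and libraries above the midpoint of 3.59 were called rich. Genes named are the 10 members, up to 3 genes of smallest p per pathway list, partner genes given by name (Lepr, Ttr, C3, Wnt5a and others), and the 2 genes most like each member. The members and lists were chosen with earlier results of these data known. GENCODE M21, in which all 10 member IDs were found, gave chromosomes and overlapping genes. Promoter windows come from RefSeq, where 9 members matched and Rarres2 did not. Other scalings, filters, pseudocounts, covariates and left-out libraries were tried as alternatives.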

Additional observations from a re-analysis of the deposited data

How the results depend on the processing

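No adipokine passed an adjusted p of 0.05 under any of the 18 alternatives computed for each, and Lep, Retn and Apln had a lower HEP value in all 18 (log2 fold changes of -0.96 to -0.22 for Lep, -0.78 to -0.15 for Retn and -0.48 to -0.05 for Apln). The sign turned for 7 members. Adipocyte scaling divides all genes of a library by the same factor. It moved the members nearly alike, and the median of all genes by 0.35. The log2 fold changes were then 0.048 for Adipoq, 0.098 for Cfd, 0.035 for Rbp4, 0.085 for Rarres2 and 0.25 for Sfrp5. The cause of the turns under the other settings was not tested. The lymphoid covariate gave 0.13 for Cfd, 0.057 for Rbp4 and 0.049 for Sfrp5. Within the libraries low in lymphocyte genes they were 0.038 for Adipoq, 0.30 for Cfd, 0.27 for Rbp4, -0.13 for Nampt, 0.068 for Rarres2 and 0.37 for Sfrp5. Leaving out 1 library gave -0.74 to 0.15 for Cfd, -0.046 to 0.15 for Nampt, -0.44 to 0.11 for Sfrp5 and -0.10 to 0.44 for Nrg4, and, with no turn of sign, -0.62 to -0.18 for Adipoq, -0.61 to -0.10 for Rarres2 and -0.80 to -0.10 for Rbp4. The low end was without HEP replicate 2 for these 3, and the high end was without HEP replicate 3 for Adipoq and Rarres2 and without HEP replicate 1 for Rbp4. The sign turned for Cfd without HEP replicate 3, for Nampt without HEP replicate 1 or HFD replicate 3, for Sfrp5 without HEP replicate 3 or HFD replicate 2 and for Nrg4 without HEP replicate 2.

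The count of genes called stayed at 0 except without HEP replicate 2, so that it ran from 0 to 1 with a library left out. The 1 gene, Gm25541, chosen after its values were seen, had 57.6, 0 and 90.01 TPM in HEP and 0 TPM in each HFD library. Genes at an unadjusted p under 0.05 numbered 279 with all libraries, 121 if HFD replicate 2 was left out and 3683 if HEP replicate 2 was. The ratio of Lep to Adipoq differed by -0.44 to -0.17 on the log2 scale with a library left out, and 5 to 6 neighbour pairs kept their order in every library.

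With the replicate number as a block 0 genes were called, 576 had an unadjusted p under 0.05, and the ratio difference of -0.27 had an exact p of 0.5. Same-numbered libraries deviated from their group means with correlations of -0.36, 0.37 and 0.65, so the numbers were not taken as pairs, and HEP replicates 1 and 2 correlated best with other numbers. Leaving out both libraries highest in liver genes, and the left-out libraries for the order, were chosen after seeing the data.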
